A study of Mus musculus with 16 samples.

Results

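The data described here are the transcriptomes of dorsal root ganglia (DRGs) from the 4 Sham-Saline mice, out of 16 mice in the series, chosen by their group label alone. Sham-Saline mice were male C57Bl6/J animals of 3 to 4 months that had a sham operation of the hind leg and then received saline injections 2 times a day for 3 weeks. The other groups, with 4 mice each, were SNI-Saline (tibial spared nerve injury, saline), Sham-DMI (sham operation, 15 mg/kg desipramine, a tricyclic antidepressant, in saline) and SNI-DMI (both). Injections began 4 weeks after surgery according to the design text, while the methods of the study give a longer interval at 1 place. No transgene or mutant allele is named for any group. Each library came from the flash-frozen L3 to L6 ganglia of a single mouse and was made with a stranded kit from polyadenylated RNA. Sham-Saline animals are therefore operated, handled and injected controls, not naive mice, and the side from which the ganglia were taken was not stated in the sources used here.

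A DRG holds the cell bodies of the primary sensory neurons, which send an axon to the skin, muscle or viscera and a central branch to the spinal cord. Small neurons are mostly nociceptors and pruriceptors, large neurons are mostly myelinated mechanoreceptors and proprioceptors. Each neuron is wrapped by satellite glia, its axon is accompanied by Schwann cells, and the ganglion also holds fibroblasts, vessels, resident macrophages and a connective tissue capsule. In bulk RNA, fewer cells of a type and less RNA per cell cannot be told apart, so that a level below describes the ganglion and not a cell.

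Sequencing gave between 59076749 and 70125807 read pairs on genes in the 4 Sham-Saline libraries, which was 79.6% to 80.4% of all pairs. A count of 3 in a library, the limit used here for detection, was equal to between 0.0428 and 0.0508 CPM. Levels of a gene in different mice are given in CPM, which are counts set to a common library total with trimmed mean of M values (TMM) factors. Levels of different genes are compared in TPM, in which each count is first divided by the summed length of the gene's exons. Values are mean ± SD over n = 4 mice, and values for single mice are given in the order mouse 1 to mouse 4, as the titles number them. All 6 pairs of Sham-Saline libraries differed by more than counting noise (chi-square per gene of 11.9 to 21.9, across 20404 to 20792 genes) and none was a repeat of another. The correlation of log2(CPM + 1) across genes was between 0.995 and 0.998 in these pairs; genes are not independent replicates.

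The labels of the series call the tissue spinal cord and the cell type dorsal root ganglia, and marker levels were read to check this. Peripherin (Prph), the intermediate filament of peripheral neurons, was at 2977 ± 141 TPM, and the actin-binding protein advillin (Avil), a marker of peripheral sensory neurons, at 1036 ± 64.2 TPM. The acetylcholine-synthesizing enzyme of motor neurons (Chat) had 1, 2, 1 and 3 reads in the 4 libraries and the oligodendrocyte factor Olig2 had 0, 1, 1 and 5. Avil, Chat and Olig2 were picked after their values were seen. Other genes of the spinal cord and oligodendrocyte lists were not at 0, and their levels are given with those lists.

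A total of 33932 of the 52636 genes in the deposited tables had at least 1 read in a Sham-Saline library and 24913 had reads in all 4. A mean of at least 1 CPM was reached by 15758 genes, of which 13724 were protein-coding, and 15199 of them reached 1 CPM in every mouse. Only 2539 genes were at 100 CPM or more and 64 at 1000 CPM or more. The 10 most abundant genes took 2.87% of the reads, the 1000 most abundant 45.1%, and 50% of the reads lay on 1260 genes. Nuclear protein-coding genes held 97.2% ± 0.0457 of the reads, mitochondrial protein-coding genes 1.03% ± 0.0258, long noncoding genes 0.897% ± 0.00779 and pseudogenes 0.709% ± 0.0185. The SDs show that the 4 mice divided their reads over these classes in nearly the same way.

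By read number, the transcriptome was led by long mRNAs of the axonal cytoskeleton. Map1b, a microtubule-associated protein of axons, was first with 6225, 5337, 6094 and 5110.1 CPM. It was followed by Prune2 at 2954 ± 276 CPM, the medium neurofilament Nefm at 2926 ± 125 CPM and the mitochondrial cytochrome oxidase subunit mt-Co1 at 2865 ± 106 CPM. Map1a, Ndrg4, Spock2, Dst and Nefh were also among the highest, all between 2161 and 2455 CPM. The 25 highest genes included the motor proteins of axonal transport Dync1h1 (1976 ± 183 CPM), the heavy chain of dynein, and the kinesins Kif1a (1957 ± 114), Kif5a (1872 ± 112) and Kif1b (1819.5 ± 120.3). The membrane skeleton proteins Sptan1 and Sptbn1 were at 2081 ± 173 and 1794 ± 97.4 CPM. Further members of this list were Phf24, mt-Cytb, Ywhag, Hsp90ab1, Fstl1, Tubb3, Scd2 and Nefl, with means from 1865 to 2093 CPM. Neighbors in this order often overlapped. Ndrg4 had 2471, 2361, 2428 and 2376 CPM and Spock2 2449, 2326, 2497 and 2358 CPM, which were not separated beyond their spread.

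Per exon length the order changed, and short mRNAs moved to the top. Leading nuclear genes were gamma-synuclein (Sncg), a small presynaptic and axonal protein of peripheral neurons, and class III beta-tubulin (Tubb3). Sncg was at 5269, 4964, 4809 and 4968 TPM and Tubb3 at 4179.5, 4138, 4231 and 3936 TPM. Every mouse had more Sncg than Tubb3. Prph had 2822, 2935, 2992 and 3160.2 TPM and the neuronal ubiquitin hydrolase Uchl1 2836, 2868, 2842 and 2809 TPM. Their ranges overlapped, and Prph was below Uchl1 in mouse 1 and above it in the other mice. Apolipoprotein E (Apoe), a lipid carrier that satellite glia make, was at 2635 ± 114 TPM and the Schwann cell protein Pmp22 at 2113 ± 264 TPM. The 3 neurofilament genes lay close together at 2187 ± 122 (Nefl), 2145 ± 231 (Nefh) and 2006 ± 95.7 (Nefm) TPM. The exons of Nefl and Nefm overlap on opposite strands over 32.8% of Nefl, and whether the counts used strand was not given in the sources used here, so the split between them is uncertain. Tuba1a (2002 ± 146 TPM) shares 64.1% of its 50-base windows with other transcripts and is uncertain too. Map1b, first by reads, was at 1424 ± 142 TPM on this scale because its exons sum to 15846 bases, against 852 for Sncg.

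**Figure D1:**
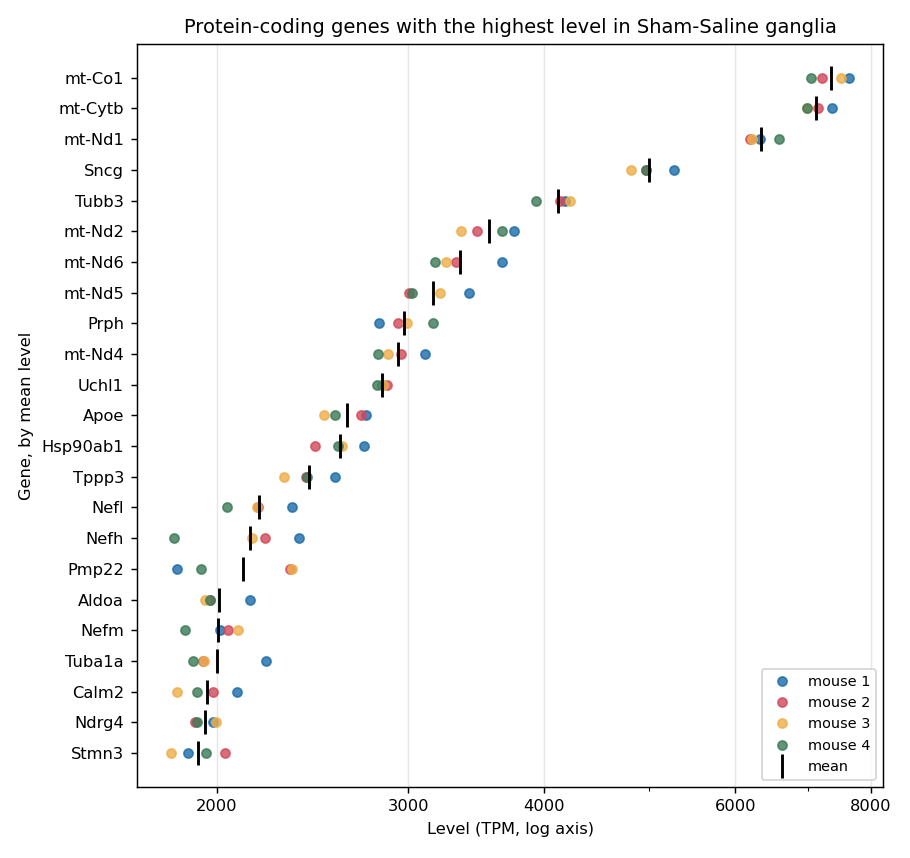
Level per exon length (TPM, log axis) of 23 of the 25 protein-coding genes with the highest mean in Sham-Saline ganglia; each point is a mouse and the black bar is the mean of 4. Sncg and Tubb3 lie above the other nuclear genes shown, at 4809 to 5269 TPM and 3936 to 4231 TPM.

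The promoters of the most abundant nuclear genes that matched the RefSeq table (build GRCm38.p6, 250 bases before to 50 after the start) are shown because they stand before the genes that dominate this tissue. Capitals mark TATAAA and GGGCGG on either strand.
Sncg, chr14:34374620-34374919, minus strand: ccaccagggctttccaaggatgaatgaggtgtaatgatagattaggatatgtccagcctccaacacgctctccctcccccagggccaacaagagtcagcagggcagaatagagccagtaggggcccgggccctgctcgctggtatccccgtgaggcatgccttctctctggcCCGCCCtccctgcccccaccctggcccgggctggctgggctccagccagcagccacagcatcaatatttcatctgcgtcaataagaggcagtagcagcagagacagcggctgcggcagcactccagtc
Tubb3, chr8:123411303-123411602, plus strand: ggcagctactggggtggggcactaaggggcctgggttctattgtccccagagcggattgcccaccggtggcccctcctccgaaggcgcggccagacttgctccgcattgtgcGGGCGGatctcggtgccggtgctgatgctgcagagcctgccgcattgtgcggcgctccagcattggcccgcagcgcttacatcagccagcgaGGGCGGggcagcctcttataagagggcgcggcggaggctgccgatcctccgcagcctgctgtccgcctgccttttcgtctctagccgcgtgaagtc
Prph, chr15:99054924-99055223, plus strand: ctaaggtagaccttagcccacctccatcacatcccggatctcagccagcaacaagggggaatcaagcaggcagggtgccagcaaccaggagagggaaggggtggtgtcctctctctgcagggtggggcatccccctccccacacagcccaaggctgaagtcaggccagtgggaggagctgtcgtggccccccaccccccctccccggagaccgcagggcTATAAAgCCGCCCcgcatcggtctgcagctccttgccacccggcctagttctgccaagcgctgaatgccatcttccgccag
Uchl1, chr5:66675871-66676170, plus strand: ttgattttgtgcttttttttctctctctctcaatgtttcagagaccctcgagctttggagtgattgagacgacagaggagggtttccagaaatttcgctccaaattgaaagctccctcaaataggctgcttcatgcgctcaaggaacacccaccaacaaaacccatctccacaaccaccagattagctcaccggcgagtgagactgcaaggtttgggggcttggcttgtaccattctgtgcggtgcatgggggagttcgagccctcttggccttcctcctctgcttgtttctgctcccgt
Of 18 nuclear genes among the 25 highest by TPM, 10 matched a promoter in the table. TATAAA was found in 1 of the 10 (Prph, beginning 31 bases before the start), against 14.2% of all 27025 promoters of this length. GGGCGG was found in 4 of the 10 (Sncg, Tubb3, Prph and Tuba1a), against 35.9% of all promoters. Uchl1 held neither string in this window. A match describes letters and is not a binding site.

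Mitochondrially encoded genes took 1.08% ± 0.0272 of the reads. Their mRNAs encode subunits of the respiratory chain and of ATP synthase, and all but mt-Nd6 are cut from the same long precursor. Levels nevertheless fell into separate ranges. An abundant set of 7 genes ran from 439 ± 30.4 CPM for mt-Nd6 to 2865 ± 106 CPM for mt-Co1, with mt-Cytb at 2055 ± 66.6, mt-Nd1 at 1529 ± 52.1, mt-Nd5 at 1457 ± 91.7, mt-Nd4 at 1022 ± 50.9 and mt-Nd2 at 933 ± 55.6. The 2 oxidase subunits mt-Co2 and mt-Co3 and the ATP synthase subunit mt-Atp6 were far lower. In the 4 mice mt-Co2 had 24.1, 23.5, 22.1 and 20.9 CPM, mt-Co3 had 20.9, 20.8, 17.6 and 18.5 CPM and mt-Atp6 had 20.5, 20.6, 18.1 and 17.4 CPM, with no overlap with any gene of the abundant set. The short genes mt-Atp8, mt-Nd4l and mt-Nd3 were at 3.64 ± 0.733, 3.66 ± 0.383 and 2.89 ± 0.341 CPM.

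The 3 low genes of intermediate length have nuclear copies that are annotated as unprocessed pseudogenes, and their starts are printed to show the identity of the sequences. Each run is the first 60 bases of the mitochondrial gene (GRCm38, chromosome M, plus strand) and is the same in its nuclear copy.
mt-Co2, chrM:7013-7072: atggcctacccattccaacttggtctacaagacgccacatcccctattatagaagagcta
mt-Atp6, chrM:7927-7986: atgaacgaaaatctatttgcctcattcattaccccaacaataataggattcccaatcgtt
mt-Co3, chrM:8607-8666: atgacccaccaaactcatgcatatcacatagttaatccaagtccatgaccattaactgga
The copies lie side by side on chromosome 1, minus strand, as Gm28661 (24614885 to 24615565), Gm10925 (24613974 to 24614651) and Gm28437 (24613189 to 24613971). They align over 681 of 684, 678 of 681 and 783 of 784 bases with 0 mismatches. In all, 99.8%, 99.5% and 99.9% of the 50-base windows of mt-Co2, mt-Atp6 and mt-Co3 are also found in another annotated transcript, against 0% for mt-Cytb and mt-Nd1. Reads that align more than once were not assigned to a gene, and they were 5.71% to 6.13% of pairs. Whether shared sequence sets the low counts was not tested. The low mt-Atp8 shared 0% of its windows, but only annotated transcripts were compared. Sequence that it may share with unannotated parts of the genome was not measured. The nuclear copies themselves, of which Gm28661 and Gm28437 were picked after their values were seen, had 8.31, 8.41, 17.98 and 8.45 CPM (Gm28661), 11.2, 11.7, 24.7 and 10.6 CPM (Gm10925) and 9.43, 9.38, 19.6 and 8.98 CPM (Gm28437). Mouse 3 was the highest for each copy, while the abundant mt-Co1 had 3005, 2813, 2883 and 2758 CPM and was highest in mouse 1. In the other 12 libraries, Gm10925 ranged from 8.08 to 31.9 CPM, with 22.4 and 31.9 CPM in Sham-DMI mice 3 and 4 and at most 10.9 CPM in the rest.

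**Figure D2:**
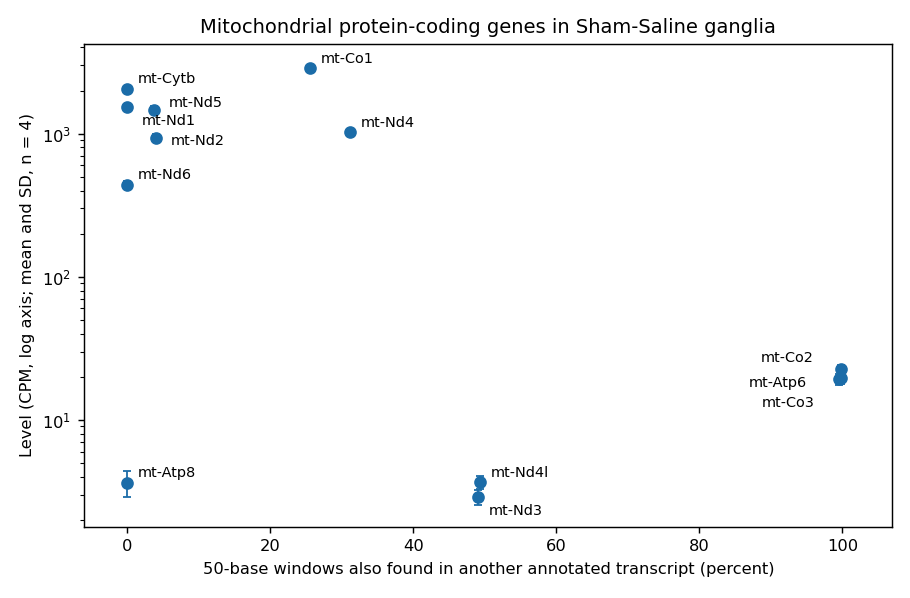
Level of the 13 mitochondrial protein-coding genes (CPM, log axis, mean and SD of 4 mice) against the percent of their 50-base windows that also occur in another annotated transcript. mt-Co2, mt-Atp6 and mt-Co3 lie at 99.5% or more and at 19.2 to 22.7 CPM, while mt-Co1, at 25.6%, is at 2865 CPM.

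Cell type markers were read as lists, each summed in TPM per mouse. A sum depends on which genes are in the list, so sums of different lists are set side by side only as levels of RNA and not as shares of cells. Of the 28 lists of cell types and other tissues, that of general sensory neuron genes was highest with 27288, 26505, 26498 and 25711 TPM in the 4 mice, with all 18 members at 1 TPM or more and a coefficient of variation (CV) of 2.43%. Besides the genes given above, it included the sensory transcription factors Pou4f1 (171 ± 13.9 TPM) and Isl1 (109 ± 3.79 TPM), and the latter had the lowest level of the list.

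Genes of nociceptors, the neurons that detect damaging stimuli, summed to 4510.1 ± 131 TPM. Calca, which encodes calcitonin gene-related peptide, was at 1799.6 ± 109 TPM and gave 39.9% of that sum. The sodium channels of nociceptors Scn10a and Scn11a were at 625 ± 52.9 and 454 ± 49.9 TPM. Peptidergic markers summed to 3206 ± 206 TPM, with Calcb at 375 ± 14.4 and the substance P precursor Tac1 at 293 ± 49.7. Non-peptidergic markers summed to 1790.4 ± 138 TPM, with the GDNF receptor Ret at 529 ± 36.8, the ATP-gated channel P2rx3 at 296 ± 22.2, the itch and pain receptor Mrgprd at 261 ± 36.98 and Gfra2 at 235 ± 21.9. Markers of pruriceptors were lower, at 298 ± 30.3 TPM, led by Mrgprx1 (65.7 ± 3.74), Mrgpra3 (47.6 ± 6.09), Nppb (45.8 ± 5.21) and Nts (32.8 ± 4.41).

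Low-threshold and thermal classes were also detected. Markers of C-low-threshold mechanoreceptors (C-LTMRs) summed to 568, 448, 537 and 593 TPM, with tyrosine hydroxylase (Th) at 238 ± 37.2 TPM and the mechanically gated channel Piezo2 at 162 ± 12.3 TPM. Cold-sensing markers summed to 131, 182, 187 and 194 TPM. In that list Penk gave 54.3% of the sum and the menthol receptor Trpm8 was at 56.6, 43.8, 53.5 and 48.95 TPM, and the low sum of mouse 1 went with its Penk (46.8, 111, 104 and 115 TPM). Large-diameter A-fiber markers summed to 3393 ± 331 TPM, of which Nefh gave 63.2%. Pvalb, a calcium buffer of proprioceptors, was at 308, 280.1, 211 and 199 TPM, Spp1 at 321 ± 46.5 and the vesicular glutamate transporter Slc17a7 at 149 ± 11.3.

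Glial genes were also among the most abundant. Myelinating Schwann cell markers summed to 5862, 8492, 8334 and 6612 TPM, with Pmp22, myelin basic protein (Mbp, 662 ± 125 TPM) and periaxin (Prx, 357 ± 99.6 TPM) among the highest. Mouse 1 was lowest and mice 2 and 3 were highest, and the CV of the sum was 17.7%. Satellite glia markers summed to 4700 ± 151 TPM with a CV of only 3.21%; their leading genes were Apoe, the lipid-binding protein Fabp7 (699 ± 42.3 TPM) and glutamine synthetase (Glul, 377 ± 11.02 TPM). Nonmyelinating Schwann cell markers summed to 1865 ± 32.3 TPM, and Ngfr, the low-affinity neurotrophin receptor that sensory neurons also make, was 49.02% of it. L1cam, Scn7a and Ncam1 followed at 456 ± 32.3, 348 ± 25.97 and 74.7 ± 2.25 TPM.

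Fibroblast markers summed to 1852, 2612, 2588 and 2199 TPM, led by apolipoprotein D (Apod, 1210 ± 192 TPM), gelsolin (Gsn, 426 ± 58.4 TPM), decorin (Dcn, 238 ± 41.1 TPM) and Serpinf1 (155 ± 6.04 TPM). Perineurial and meningeal markers, which mark the sheath of the ganglion, had a CV of 46.8%, with 525, 757, 1602 and 1222 TPM. Prostaglandin D synthase (Ptgds) alone gave 78% of this sum. Endothelial markers summed to 239 ± 36.8 TPM, with the tight junction gene Cldn5 at 66.8 ± 15.3 TPM, Egfl7 at 36.5 ± 6.15, Ly6c1 at 27.01 ± 2.62 and Esam at 22.9 ± 3.34. Pericyte and smooth muscle markers summed to 261 ± 20.8 TPM, and Rgs5 (174 ± 11.3 TPM) gave 66.4% of it.

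Immune RNA was low and, for some lists, uneven. Macrophage markers were detected in full (14 of 14 at 1 TPM or more) and summed to 428 ± 31.9 TPM, with lysozyme (Lyz2) at 164 ± 10.3 TPM and the complement genes C1qa, C1qb and C1qc at 79.1 ± 7.34, 65.2 ± 6.79 and 35.9 ± 4.44 TPM. Neutrophil markers summed to 132, 206, 54.1 and 200.4 TPM, so that mouse 3 was lowest; S100a9 and S100a8, the calprotectin subunits, were at 66.7 ± 32.4 and 33.04 ± 16.4 TPM. Only 4 of 12 T and natural killer cell markers reached 1 TPM, and the list summed to 11.1 ± 0.58 TPM. The B-lineage list summed to 174 ± 9.996 TPM, but Ighm and Ebf1 gave nearly all of it, with 92.2 ± 7.87 and 71.9 ± 4.74 TPM, and Cd79a, the signaling chain of the B cell receptor, was at 3.505 ± 0.664. Mast cell markers other than Kit (53.7 ± 4.02 TPM, which peptidergic neurons also make) were led by the proteases Mcpt4 (8.19 ± 3.37), Tpsb2 (6.29 ± 1.26) and Cma1 (5.89 ± 2.34). Red cell genes summed to 647, 475, 182 and 388 TPM, with Hbb-bs at 344, 215, 109 and 215 TPM. Mouse 3 was lowest in both the red cell and the neutrophil list.

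**Figure D3:**
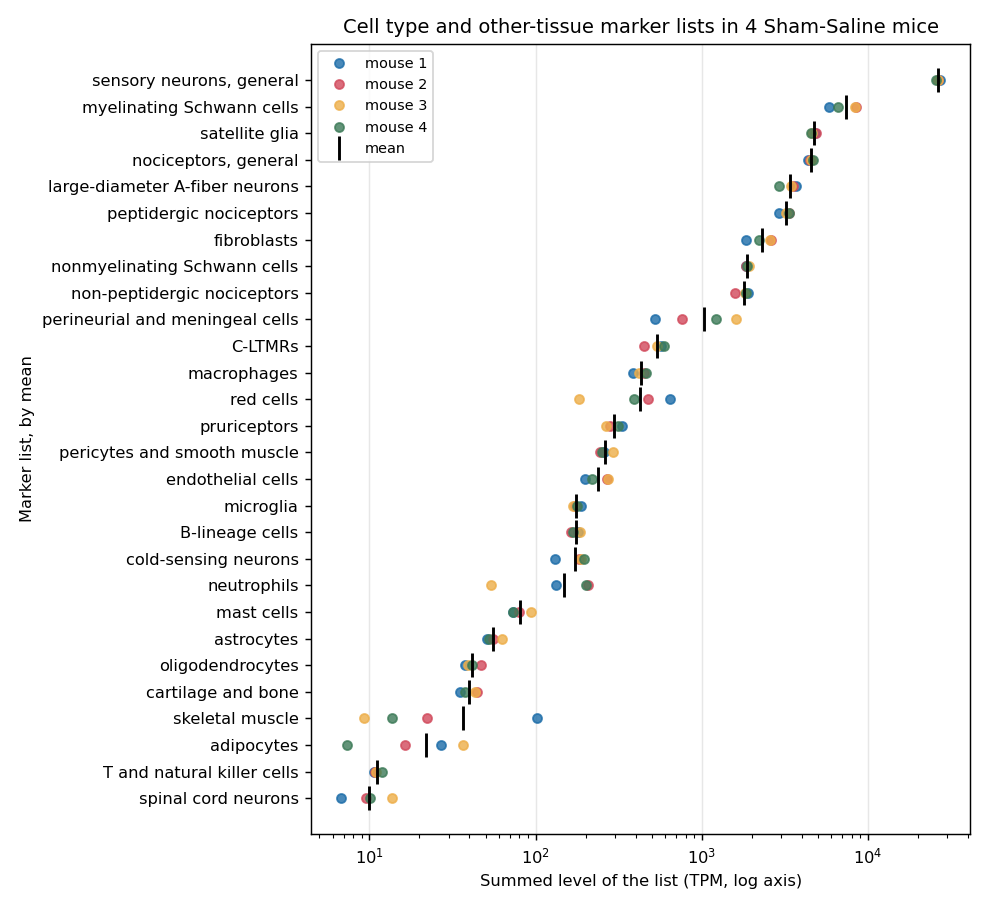
Summed level (TPM, log axis) of 21 cell type and 7 other-tissue marker lists; each point is a Sham-Saline mouse and the black bar is the mean of 4. The lists of sensory neurons, satellite glia and Schwann cells span at most 1.48-fold, while the perineurial and meningeal, red cell, neutrophil, adipocyte and skeletal muscle lists span 3.05-fold to 10.9-fold.

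Lists of tissues next to the ganglion gave the background. Of 10 spinal cord neuron genes 2 reached 1 TPM, Zic1 (5.101, 7.76, 11.7 and 7.54 TPM) and Pax2 (1.15 ± 0.114 TPM), and the GABA-synthesizing enzyme Gad1 was at 0.453 ± 0.0365 TPM. The oligodendrocyte list summed to 41.2 ± 3.95 TPM, but Aspa gave 75.2% of it. Mobp came next with 2.005, 7.906, 6.2 and 7.687 TPM, and Nkx6-2 and Hapln2 were at 1.42 ± 0.285 and 1.004 ± 0.346 TPM. The astrocyte list summed to 55.5 ± 5.15 TPM and the microglia list to 176 ± 8.21 TPM, in which the microglial markers P2ry12 and Tmem119 were at 8.81 ± 0.801 and 4.05 ± 1.18 TPM. Skeletal muscle genes were high in a single mouse, with a sum of 102, 22.3, 9.32 and 13.7 TPM; Tnnt3, a troponin of fast muscle, had 32.1, 7.13, 1.19 and 3.05 TPM and skeletal actin (Acta1) 20.4, 4.44, 1.63 and 3.296. Without mouse 1 the mean of this list was 15.1 TPM. In the other 12 libraries it ranged from 9.05 to 544 TPM, with SNI-DMI mouse 2 highest. Adipocyte genes summed to 27.1, 16.4, 36.3 and 7.29 TPM and cartilage and bone genes to 40.02 ± 4.38 TPM. The part of neighboring tissue in the differences between mice was not tested. The 4 Y-linked genes on the list, read as a check of the labelled male sex, summed to 99.8 ± 4.11 TPM.

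Neuropeptide precursors followed an order that began with Calca and the granin Scg2 (759 ± 39.8 TPM), an acidic protein of dense-core vesicles. Neuromedin B (Nmb) was at 441 ± 36.4 TPM, Calcb at 375, chromogranin A (Chga) at 309.5 ± 10.3 TPM, Tac1 at 293 and chromogranin B (Chgb) at 208 ± 12.7 TPM. Vgf had 134, 159, 163 and 175 TPM, galanin (Gal) 72.7, 122, 121 and 154 TPM and PACAP (Adcyap1) 91.6, 116, 115 and 119.6 TPM. Gal overlapped with both, and Vgf was above Adcyap1 in every mouse. In total 17 of 24 precursors reached 1 TPM. Grp and Vip were close to the detection limit at 0.0626 ± 0.0809 and 0.0273 ± 0.0187 TPM, and Npy had 1.09, 10.9, 1.77 and 0.737 TPM, so that its mean rested on mouse 2.

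The list of voltage-gated sodium channels, a family that sets the excitability of these neurons, had all members at 1 TPM or more (14 of 14). Alpha subunits were ordered Scn10a, Scn11a, Scn7a (348 ± 25.97 TPM), Scn9a (185 ± 16.1), Scn8a (80.95 ± 6.42) and Scn1a (64.3 ± 5.92). Scn7a is also on the nonmyelinating Schwann cell list, so its level is not that of neurons alone. Scn2a, Scn4a and Scn3a were below 10 TPM. The beta subunit Scn4b was at 392 ± 15.5 TPM. Among transient receptor potential (TRP), Piezo and acid-sensing channels, the capsaicin receptor Trpv1 (190.5, 271, 294 and 298 TPM) and the acid-sensing Asic3 (249.9, 222, 220.5 and 219 TPM) overlapped as the highest. Piezo2 was at 162, Trpa1 at 73.1 ± 2.12 TPM and Piezo1 at only 2.86 ± 0.909 TPM. The sodium pump genes summed to 6876 ± 93.7 TPM with a CV of 1.36%, with the regulatory subunit Fxyd7 at 1373 ± 77.8 TPM and the beta subunit Atp1b1 at 1070 ± 21.2 TPM.

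Synaptic vesicle and release genes had the smallest spread of all 47 lists, with a CV of 0.729% and a sum of 5007 ± 36.5 TPM. Complexin 1 (Cplx1), a regulator of vesicle fusion, was at 1644 ± 26.2 TPM, Snap25 at 659 ± 43.5, Vamp2 at 522 ± 39.6 and synapsin 1 (Syn1) at 514 ± 31.4 TPM. The vesicular glutamate transporters ordered as Slc17a6 (201 ± 10.3), Slc17a7 (149) and Slc17a8 (15.1 ± 3.23). Rab3a, a vesicle GTPase of neurons, had only 2, 4, 3 and 2 reads in the 4 libraries. It shares 0% of its 50-base windows with other transcripts and overlaps another gene over 1.303% of its exons in the annotation used here, while the annotation that the authors counted with was not given in the sources used here.

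Receptors for trophic factors were led by Ngfr (914 ± 58.8 TPM) and Ret, and the neurotrophin receptors Ntrk3 and Ntrk2 were at 60.3 ± 7.96 and 55.01 ± 4.45 TPM. The GDNF coreceptors ordered as Gfra2 (235 ± 21.9), Gfra3 (143 ± 14.02), Gfra1 (128 ± 3.63) and Gfra4 (36.8 ± 2.12), and the cytokine receptor subunits Il6st and Lifr were at 221 ± 22.8 and 198 ± 18.3 TPM. Transcription factors of sensory neurons were led by Isl2 (404 ± 28.7 TPM), Prdm12 (314 ± 20.4 TPM), a factor needed for nociceptors, and Tlx3 (233 ± 21.3 TPM). The proneural genes of the embryo Neurog1 and Neurog2 were at 0.948 ± 0.112 and 0.257 ± 0.0896 TPM.

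Desipramine acts chiefly on the noradrenaline transporter, and this transporter (Slc6a2) was barely detected in the ganglion, with 9, 14, 35 and 6 reads or 0.157 ± 0.131 TPM. The serotonin transporter (Slc6a4) had 14, 20, 8 and 16 reads and the dopamine transporter (Slc6a3) 0, 1, 0 and 0. The noradrenaline-synthesizing enzyme Dbh had 2, 4, 2 and 4 reads, while Th was at 238 TPM. Of the 30 genes on the list of desipramine targets and monoamine genes, 19 reached 1 TPM and 11 did not. Among the receptors, the serotonin-gated channel Htr3a was at 387 ± 52.9 TPM and the alpha-2 adrenoceptors Adra2c and Adra2a at 27.99 ± 2.74 and 9.44 ± 3.47 TPM. Other sites to which tricyclic drugs bind, the muscarinic receptor Chrm2 and the histamine receptor Hrh1, were at 14.4 ± 1.67 and 3.97 ± 0.326 TPM.

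Of 20 genes known to rise after nerve injury, 16 reached 1 TPM in these operated controls. Atf3, a stress factor of injured neurons, was at 22.1, 21.9, 19.8 and 13.6 TPM, Gal at 117, Jun at 116 ± 5.53 TPM, Sprr1a at 4.58, 10.1, 4.896 and 3.03 TPM and Sox11 at 5.62 ± 0.521 TPM. Immediate early genes summed to 309 ± 15.9 TPM; Fos and Egr1 were at 6.86 ± 1.44 and 12.4 ± 1.84, and Npas4 at 0.638 ± 0.292 TPM. Only 7 of 20 inflammatory genes reached 1 TPM, led by Il18 (18.5 ± 2.23) and Cxcl12 (16.2 ± 1.62), while Il1b, Tnf and Il6 were at 0.751 ± 0.401, 0.208 ± 0.196 and 0.2 ± 0.151 TPM. All 17 interferon-stimulated genes were above 1 TPM, and several were highest in mouse 1, including Oasl2 (60.6, 32.04, 34.5 and 31.8 TPM), Ifit1 (64.2, 33.98, 47.1 and 34.4 TPM) and Ifi44 (4.06, 0.675, 1.07 and 0.865 TPM). Proliferation genes summed to 80.3 ± 4.29 TPM, of which Pcna gave 68.7%, and the division marker Mki67 was at 2.12 ± 0.43 TPM. Clock genes were led by Cry2 (76.5 ± 2.43) and Tef (64.7 ± 3.904); Nr1d1 had 22.6, 30.8, 44.4 and 35.1 TPM and Dbp 11.2, 15.3, 21.2 and 16.4 TPM. Of the metallothionein and glucocorticoid genes, the neural metallothionein Mt3 was highest at 490 ± 34.5 TPM.

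Among genes of a long noncoding type in the annotation, the highest per exon length were Miat (338 ± 20.6 TPM), Malat1 (329.8 ± 43.3 TPM), 2900097C17Rik (319 ± 10.2 TPM), Peg13 (270.3 ± 10.3 TPM) and a noncoding entry named Cct6a (225 ± 13.6 TPM). Malat1, a nuclear RNA, had 502, 539, 614 and 668 CPM and a CV of 12.8%, above the median for genes of its level. Snhg11, a neuronal RNA known as noncoding, was higher at 706 ± 57.9 TPM but is listed as protein-coding in the annotation. Miat overlaps other genes over 30.4% of its exons and Cct6a over 15.3%, so their levels are uncertain. Rian, from an imprinted cluster, had 3.56, 2.84, 16.9 and 2.49 CPM and was high in mouse 3 only, and was at most 3.96 CPM in the other 12 libraries.

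Hox genes record the position of a ganglion along the body axis, and 17 of 22 on the list reached 1 TPM. Hoxa9 (52.8, 55.03, 55.6 and 59.7 CPM) and Hoxa10 (34.8, 35.4, 34.4 and 38.3 CPM) had similar levels in the 4 mice. Other genes of groups 10 and 11 did not, with 9.304, 19.3, 21.4 and 26.6 CPM for Hoxd10, 1.95, 9.37, 10.4 and 13.01 CPM for Hoxc11 and 2.99, 7.23, 8.82 and 9.84 CPM for Hoxd11, so that mouse 1 was lowest in each. Hoxa13, Hoxd12 and Hoxd13 had 0 reads in all 4 libraries, which allows up to 0.0508 CPM. In the other 12 libraries Hoxc11 ranged from 0 to 19.9 CPM, and Sham-DMI mouse 4 (0 CPM) and SNI-Saline mice 3 and 4 (1.78 and 1.67 CPM) were at or below Sham-Saline mouse 1.

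Differences between the 4 mice were small for most genes. The median CV of genes at 1 CPM or more was 7.13%, and it was 12.6% in genes of 1 to 10 CPM, 5.99% from 10 to 100 CPM and 5.10% from 100 to 1000 CPM. Counting error alone gives 12.4% at 1 CPM and 1.24% at 100 CPM, so the median spread of genes from 100 CPM was larger than counting error. Of genes from 10 to 100 CPM, 2.38% had a CV above 20%. The common biological CV was 0.102 in Sham-Saline. It was 0.135 for Sham-DMI, 0.110 for SNI-DMI and 0.104 for SNI-Saline, and these were not tested against each other. Without mouse 1 the Sham-Saline value was 0.0834.

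**Figure D4:**
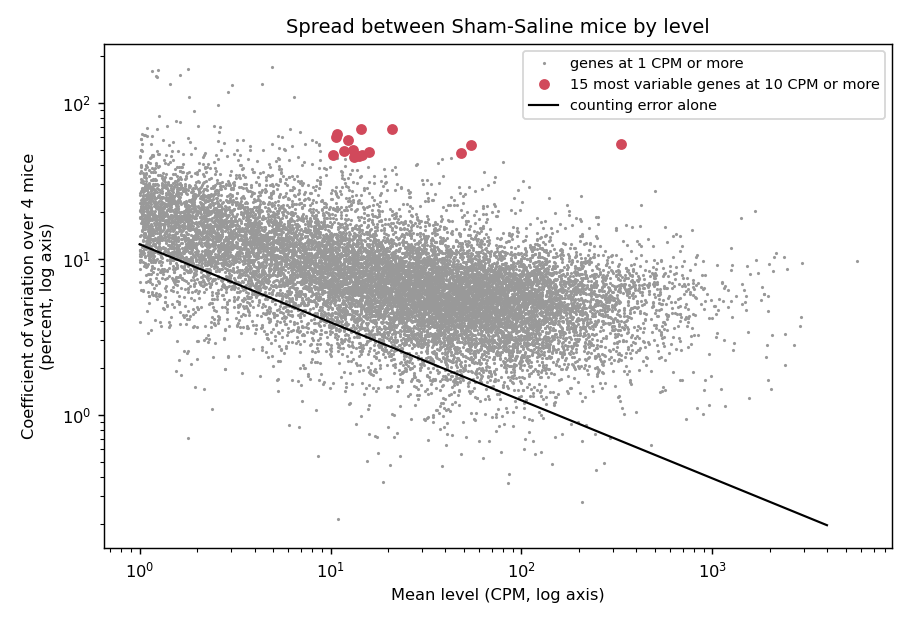
Coefficient of variation over 4 mice (percent, log axis) against mean level (CPM, log axis) for 15758 genes; red points are the 15 most variable genes at 10 CPM or more, and the line is the spread that counting alone gives at the mean depth. Most genes above 100 CPM lie above the line, and the red points have CVs of 44.7% to 68.0%.

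Among 10493 genes with a mean of at least 10 CPM, the 100 most variable had CVs from 25.6% to 68.0%, and their variation ran along a few mice. Mouse 1 was lowest in 79 of the 100 and mouse 3 highest in 60, with both in 53, whereas over all 10493 genes mouse 1 was lowest in 24.04% and mouse 3 highest in 18.2%. Mouse 1 was highest in 11 and mouse 4 in 19. These genes were chosen for their spread, so the counts are a description.

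Of the 15 most variable genes, 8 are given together for their common order of mice, which was seen in their values. Ptgds had 147, 222, 537 and 423 CPM, the retinoic acid-synthesizing enzyme Aldh1a2 3.88, 7.85, 19.8 and 11.6 CPM, and the collagen-binding Fmod 5.48, 7.88, 21.1 and 14.9 CPM. Fibronectin (Fn1) had 29.6, 36.5, 94.5 and 56.4 CPM and vitronectin (Vtn) 22.6, 44.02, 78.3 and 47.2 CPM, both glycoproteins of the matrix. The transporters Slc6a13 (8.904, 11.8, 26.4 and 16.3 CPM) and Slc13a4 (8.17, 10.7, 22.9 and 14.8 CPM) and the tight junction gene Cldn11 (6.57, 11.3, 20.7 and 14.3 CPM) had the same order of mice. In all 8 of these genes mouse 3 was highest and mouse 1 lowest. The summed perineurial and meningeal list moved with these genes, but it holds Ptgds and Aldh1a2, and Ptgds alone gave 78% of it. It is therefore not a separate observation. The same genes spread widely elsewhere, with Ptgds from 82.2 to 756 CPM in the other 12 libraries. The part of sheath tissue in this spread was not tested.

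A smaller set was low in mouse 1 and similar in the other mice. Uts2b, a neuropeptide precursor, had 1.39, 12.5, 12.9 and 16.1 CPM and the steroid enzyme Srd5a2 3.37, 16.5, 15.3 and 17.6 CPM. Mobp, a member of the oligodendrocyte list, had 3.495, 13.7, 10.6 and 13.3 CPM. From the lists, Hoxd10, Penk (19.4, 45.7, 42.2 and 47.8 CPM), Cartpt (11.8, 31.9, 30.6 and 37.4 CPM) and the adrenoceptor Adra2a (5.63, 12.1, 15.4 and 12.8 CPM) had the same low mouse. Uts2b and Srd5a2 were also low in the libraries that were low in Hoxc11, with 0.268 and 0.0946 CPM in Sham-DMI mouse 4 and 1.49 and 3.23 CPM in SNI-Saline mouse 3. Uts2b was at 1.38 and 1.73 CPM in SNI-Saline mouse 4 and Sham-DMI mouse 2, and at 4.22 CPM or more in the remaining 8. Mobp did not follow this order, since SNI-Saline mouse 4 had the most (23.7 CPM). The part of the lumbar levels taken in these differences was not tested.

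The remaining variable genes had other patterns. Hba-a1 had 35.3, 30.1, 5.41 and 12.8 CPM, with 72.3% of its windows shared with the other globin genes. It went with the red cell list, of which it is a member. Eps8l1 was highest in mouse 2 (10.8, 28.3, 12.8 and 5.55 CPM), and the imprinted RNA H19 had 5.15, 15.7, 17.4 and 8.71 CPM. The 10 least variable genes at 10 CPM or more were Slc26a11, Ppp6r1, Lman2, Zfp263, Eif4e2, Rab2a, Tbrg4, Cgrrf1, Actr10 and Lrp11. Their CVs were 0.489% or less, and Ppp6r1 for example had 207, 208, 208 and 208 CPM.

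**Figure D5:**
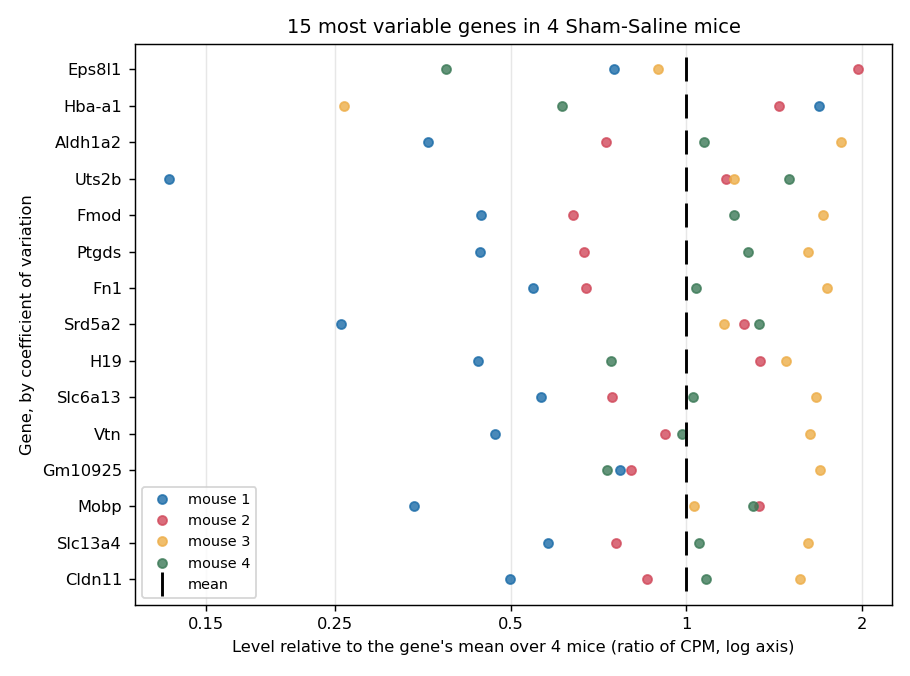
Level of the 15 most variable genes relative to each gene's mean over 4 Sham-Saline mice (ratio of CPM, log axis); each point is a mouse and the black bar is the mean. Mouse 3 is the rightmost point for Ptgds, Aldh1a2, Fmod, Fn1, Vtn, Slc6a13, Slc13a4 and Cldn11, and mouse 1 is far to the left for Uts2b, Srd5a2 and Mobp.

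To see where the baseline differed from the groups that differ from it in 1 factor, all genes were tested with edgeR's quasi-likelihood method (Benjamini-Hochberg adjusted p under 0.1). Of 21371 genes tested, 12% differed between SNI-Saline and Sham-Saline (1250 genes or 5.85% higher, 1321 or 6.18% lower in SNI-Saline) and 23.4% between Sham-DMI and Sham-Saline (2475 or 11.6% higher, 2535 or 11.9% lower in Sham-DMI). Both comparisons share the Sham-Saline mice. The first count changed with the library that was left out. It was 1257, 2647, 682 and 1218 without Sham-Saline mouse 1, 2, 3 or 4. Without SNI-Saline mouse 1, 2, 3 or 4 it was 748, 771, 2725 and 1616. Each of these fits also had 1 mouse fewer, and the cause of the changes was not tested. The second count was 3286 without Sham-Saline mouse 3 and 6094 without Sham-DMI mouse 2. The library numbers of each group are consecutive, so library number and group cannot be told apart.

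Of the 25 genes highest by TPM, 3 were called in SNI-Saline, all higher. This was 12%, against 12% of all genes called and 5.85% called higher. The median log2 difference was 0.12 against -0.00060 over all genes. In Sham-DMI, 11 of the 25 were called, all higher, with a median of 0.14 against -0.021. This was 44.0%, against 23.4% of all genes called and 11.6% called higher. The ranking mattered, since of the 25 genes highest by CPM only 5 were called in Sham-DMI (20%, 4 higher and 1 lower), with a median of 0.022. Stmn3, a regulator of microtubules, had 512 to 583 CPM in Sham-Saline and 627 to 770.2 CPM in Sham-DMI (log2 difference 0.35 ± 0.06 SE, edgeR adjusted p = 0.00271). The glycolytic enzyme Aldoa had 1414 to 1591 and 1706 to 2004 CPM in these groups (log2 difference 0.29 ± 0.06, edgeR adjusted p = 0.00423). The groups did not overlap in either gene. Of the 15 most variable genes 0 were called in either comparison by edgeR or DESeq2, and 0 and 2 had an unadjusted p under 0.05 in SNI-Saline and Sham-DMI. They were chosen for a wide spread within Sham-Saline, the group that both comparisons share, so nothing is read from this count.

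Among the genes that the naming rule takes in, some known to rise after nerve injury were among those with the lowest p against SNI-Saline. The rule takes in the whole injury-induced list, so this is not a ranking over all genes tested. Sprr1a had 0.619 to 2.06 CPM in Sham-Saline and 41.1 to 45.5 CPM in SNI-Saline (log2 difference 5.23 ± 0.54 SE, edgeR adjusted p = 5.05e-05). Npy had 0.106 to 1.55 and 19.4 to 26.2 CPM (log2 difference 5.41 ± 0.59, edgeR adjusted p = 9.15e-05). Atf3 had 7.44 to 12.1 and 50.9 to 54.6 CPM and neurotensin (Nts) 8.62 to 12.1 and 62.8 to 82.2 CPM, again with no overlap. Nts was also higher in Sham-DMI, at 15.8 to 38.7 CPM. The sensory acid channel Asic3 had 133 to 154 CPM in Sham-Saline and 177 to 194 CPM in Sham-DMI (log2 difference 0.40 ± 0.06, edgeR adjusted p = 0.00176), and the metal-binding Mt1 was higher in both groups. As a list, the injury-induced genes had 16 of 19 tested members called higher and 0 lower in SNI-Saline, where 5.85% of all genes were called higher, with a median log2 difference of 1.04. The macrophage list had 7 of 14 called higher and 0 lower there, with a median of 0.56. In Sham-DMI, 13 of 26 cytoskeleton genes were called higher and 1 lower, with a median of 0.19, against 11.6% of all genes called higher. This list shares members such as Tubb3 and Stmn3 with the 25 genes highest by TPM, so these counts are not separate observations. The general sensory neuron list had 8 of 18 called higher and 1 lower there (median 0.16). Neuropeptide precursors had 8 of 20 called higher and 0 lower (median 0.24). Of 10 neutrophil genes tested, 7 were called lower and 0 higher in Sham-DMI, against 11.9% of all genes called lower, with a median of -1.58. The median there was -1.23 for B-lineage genes (4 of 7 called lower) and -0.68 for red cell genes, and the part of blood or marrow cells in this was not tested. Earlier results of these data were known when the lists were chosen, so these counts are a description.

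Composition was compared with exact two-sided permutation tests over mice, 6 in all, in which 4 against 4 cannot give a p below 0.0286. The share of reads on the 85 cytosolic ribosomal protein genes was 0.662% ± 0.0498 in Sham-Saline, 0.788% ± 0.0257 in SNI-Saline (exact p = 0.0286, adjusted p = 0.171) and 0.819% ± 0.0905 in Sham-DMI (exact p = 0.0571, adjusted p = 0.171). Neither difference passed after adjustment. With 6 tests, a comparison that is alone at the smallest possible p cannot pass, so no absence of a difference is read from this. Every SNI-Saline mouse was above every Sham-Saline mouse in this share. The share on mitochondrially encoded genes was 1.07% ± 0.0326 in SNI-Saline (exact p = 0.629, adjusted p = 0.629) and 1.02% ± 0.132 in Sham-DMI (exact p = 0.543, adjusted p = 0.629). The 100 most abundant genes of Sham-Saline took 13.8% ± 0.267 of its reads, 13.9% ± 0.157 in SNI-Saline (exact p = 0.600, adjusted p = 0.629) and 14.1% ± 0.710 in Sham-DMI (exact p = 0.629, adjusted p = 0.629).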

How the data were processed

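RNA of L3 to L6 ganglia was sequenced as paired reads on 16 libraries, 1 mouse each. Per the labels, the authors aligned reads to mm10 with HISAT2, counted them per gene with HTSeq and deposited 1 table of raw counts per library; versions, annotation release and strand setting were not given in the sources used here. Rows that name no gene were dropped, which left 79.6% to 80.4% of pairs in Sham-Saline. Gene types, exon lengths and overlaps came from GENCODE M21 (GRCm38), which matched 52489 of 52636 genes; the other 147 held 0.019% of the reads. CPM used TMM factors over 16 libraries, and TPM used the union of a gene's exons. Groups were taken from the labels. Contrasts were fitted on all 16 libraries with edgeR 4.0.16 in R 4.3.3 (quasi-likelihood test, filterByExpr, 1 coefficient per group, adjusted p under 0.1, no replicate block), and DESeq2 1.42.0 was an alternative. Single shares were compared with exact permutation tests. Mice are the replicates, 4 per group. Intervals of counting error treat reads as independent molecules.

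The genes named were the 25 highest by CPM and, among protein-coding genes, by TPM, up to 4 leading members of each of 47 lists, any member of the lists of functions, members with 0 reads, the 15 most and 10 least variable genes at 10 CPM or more, the 5 highest long noncoding genes and, per contrast, the 10 called genes of these with the lowest p. Other genes were picked after their values were seen and are named as such, apart from mitochondrial genes, which were shown as a set. Some genes that this rule takes in are not reported here. The lists matched 628 of 628 entries, 2 by an older symbol. Members and lists were chosen with earlier results of these data known. Alternatives were other normalizations, no filter, DESeq2, a fit on 8 libraries, a replicate block, other lengths and leaving out each library.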

Additional observations from a re-analysis of the deposited data

Results flagged for a closer look

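Of 121 values examined in the 4 Sham-Saline mice (47 list sums, 3 shares and 71 genes), 6 had a mouse so far from the nearest other that its gap passed the 95% critical value of Dixon's test. Chance flags about 1 in 20, or 6.05 of 121. Mouse 1 stood apart with a skeletal muscle sum of 101.7 TPM (median of the others 13.67), with 1018.1 CPM of Tuba1a (872.8) and with 3.374 CPM of Srd5a2 (16.54). Mouse 2 had 305.3 CPM of Peg13 (327), mouse 3 had 24.7 CPM of Gm10925 (11.2) and mouse 4 had 2740.8 CPM of Nefm (2991.7).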

How the results depend on the processing

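The count of genes called between SNI-Saline and Sham-Saline (2571) ranged from 682 to 2725 when 1 library was left out, and that between Sham-DMI and Sham-Saline (5010) from 3286 to 6094; the cause was not tested. The 20 named contrast results, 10 per comparison, stayed called with the same direction in all 279 refits that gave an adjusted p (highest 0.02427). These genes had been chosen for their low p in the main fit of the same libraries, which made this outcome likely. With the replicate number as a block (replicate block), 2106 and 4739 genes were called. Correlations of same-numbered libraries ran from -0.0813 to 0.184, so the numbers were not taken as pairing the mice. DESeq2 called 3410 and 5570 genes and edgeR without a filter 2094 and 4143. Expressed as TPM, the shares became 17.02% for the 100 most abundant genes, 3.843% for mitochondrial and 1.64% for ribosomal protein genes, since short genes gain weight by construction. Adjusted p of the 6 share tests ran from 0.08571 to 0.9714 over the alternatives. The common biological CV was 0.08345 to 0.1122 with a mouse left out. Of the 15 most variable genes, 6 to 12 stayed in that set without 1 mouse, a check added after seeing the data; it was 6 without mouse 3 and 9 without mouse 1. With the longest transcript as length, 47 of 47 list sums stayed within 1.5 times, and without mouse 1 skeletal muscle alone did not, at 15.1 TPM. Whether a count used strand, and reads shared by near-identical copies, limit the levels of overlapping and duplicated genes.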
